A study of Homo sapiens with 4 samples.

Results

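Stable early-listed distal sites were defined as stretches of accessible chromatin far from any gene start that stood near the top of the FAIRE site lists of H295R/TR SF-1 cells both at basal and at increased SF-1 dosage. They were taken from the sites on chromosomes 1 to 22 and X that overlapped 1 to 1 between the 2 lists by at least 1 bp. Both numbers of the pair, the running number that each list gives its sites, had to lie within the first 20% of the list. The centre of the basal site had to lie farther than 10 kb from every GENCODE transcription start and within 200 kb of a protein-coding start. Of 18465 pairs, 3928 were within the number limit of both lists, 503 of these were farther than 10 kb from every start, and 404 also met the distance limit for coding genes. The lists held 34423 basal and 31219 overexpression sites, and 53.7% of the basal sites on these chromosomes were in such a pair. The 404 sites were chosen by their running numbers, their overlap and their distances, which are therefore given as a description only.

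FAIRE-seq, which recovers the DNA that nucleosomes leave free after formaldehyde fixation, was applied to H295R/TR SF-1 cells. This subclone of the human adrenocortical tumour line H295R makes additional SF-1 when doxycycline is given. The FAIRE basal group held 1 library of cells without added doxycycline, and the FAIRE overexpression group held 1 library of cells given doxycycline for 3 days. Both groups carried the inducible SF-1 construct and the SF-1 of the parent line, they came from 1 subclone, and the input DNA samples were not analysed here. Each condition rests on a single library, so none of the differences between conditions could be tested, the depth of the libraries is unknown, sites are not replicates, and all intervals are 95% intervals that cover counting error only.

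SF-1, the product of NR5A1, is a nuclear receptor that binds DNA as a monomer and is needed for adrenal development and for the expression of steroidogenic enzymes. CTCF is a zinc finger protein that binds insulators and the anchors of chromatin loops. Open sites far from promoters are often enhancers or insulators, and the nearest gene is not always the one they act on.

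The sequences below are of GRCh37 and show the motifs on which the description turns. SF-1 motifs were the 8 letters CAAGGTCA or CAAGGCCA on either strand, and each is shown in capitals with 20 bases on either side, on the strand that reads CAAGG. The sites near ZNF618, a zinc finger gene with 3 sites that all held an SF-1 motif, are given with those at THSD4, RORB and TBX3, which are among the 10 genes with most sites.
ZNF618 upstream site, first motif (chr9:116568061-116568108, minus strand): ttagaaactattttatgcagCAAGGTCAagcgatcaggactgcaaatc
ZNF618 upstream site, second motif (chr9:116568183-116568230, minus strand): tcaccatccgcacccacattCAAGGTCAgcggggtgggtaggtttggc
ZNF618 second upstream site (chr9:116577764-116577811, plus strand): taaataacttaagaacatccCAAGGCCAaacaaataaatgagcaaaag
ZNF618 intronic site (chr9:116675210-116675257, plus strand): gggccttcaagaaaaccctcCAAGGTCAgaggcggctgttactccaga
THSD4 intronic site (chr15:71793876-71793923, plus strand): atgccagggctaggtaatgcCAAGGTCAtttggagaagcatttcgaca
RORB intronic site (chr9:77296936-77296983, minus strand): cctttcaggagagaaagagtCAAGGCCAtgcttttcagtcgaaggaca
TBX3 upstream site (chr12:115237714-115237761, minus strand): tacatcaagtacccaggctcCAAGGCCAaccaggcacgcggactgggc

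CTCF motifs were matches to its 12-letter core with up to 1 mismatch on either strand, shown in capitals with 20 bases on either side. The 3 matches in introns of TRPM3, an ion channel gene with 3 sites, are given with those in PDE4D, which encodes a phosphodiesterase that degrades cAMP, and near TNS3, a focal adhesion gene with 4 sites.
TRPM3 first site, first motif (chr9:73864775-73864826, minus strand): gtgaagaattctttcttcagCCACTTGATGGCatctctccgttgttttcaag
TRPM3 first site, second motif (chr9:73864830-73864881, minus strand): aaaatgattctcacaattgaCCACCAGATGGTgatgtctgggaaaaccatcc
TRPM3 other site (chr9:73900220-73900271, plus strand): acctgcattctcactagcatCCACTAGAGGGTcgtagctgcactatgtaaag
PDE4D intronic site (chr5:59096070-59096121, minus strand): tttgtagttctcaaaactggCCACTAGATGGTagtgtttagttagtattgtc
TNS3 downstream site (chr7:47305987-47306038, plus strand): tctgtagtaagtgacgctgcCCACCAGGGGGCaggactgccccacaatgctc

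The next 4 sites are shown over 300 bases around their centre, because they stood at adrenal genes or held both motifs. Capitals mark SF-1 motifs in KCNK3, SF-1 and CTCF motifs in UNC5B and TNFAIP3, and a match to the core of the NRSF/REST motif, with up to 1 mismatch, in the site upstream of NR5A1.
KCNK3 intronic site (chr2:26947150-26947449, plus strand): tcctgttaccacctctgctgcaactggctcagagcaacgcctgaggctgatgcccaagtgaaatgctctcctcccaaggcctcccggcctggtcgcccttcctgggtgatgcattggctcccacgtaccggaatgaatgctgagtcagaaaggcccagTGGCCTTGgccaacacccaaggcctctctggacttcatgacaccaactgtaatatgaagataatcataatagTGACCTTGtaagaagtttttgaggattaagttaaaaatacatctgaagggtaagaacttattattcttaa
NR5A1 upstream site (chr9:127288550-127288849, plus strand): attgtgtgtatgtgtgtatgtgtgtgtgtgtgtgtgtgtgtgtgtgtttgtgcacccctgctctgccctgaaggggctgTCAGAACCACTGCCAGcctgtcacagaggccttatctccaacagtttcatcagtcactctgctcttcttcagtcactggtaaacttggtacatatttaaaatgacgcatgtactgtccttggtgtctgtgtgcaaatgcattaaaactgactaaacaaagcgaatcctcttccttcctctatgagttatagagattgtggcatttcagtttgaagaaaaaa
UNC5B upstream site (chr10:72947400-72947699, plus strand): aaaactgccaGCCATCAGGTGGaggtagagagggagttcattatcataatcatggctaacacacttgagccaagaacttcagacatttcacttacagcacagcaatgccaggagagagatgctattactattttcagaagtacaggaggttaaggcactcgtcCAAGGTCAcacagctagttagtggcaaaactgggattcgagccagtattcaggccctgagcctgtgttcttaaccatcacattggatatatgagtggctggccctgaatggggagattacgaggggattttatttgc
TNFAIP3 upstream site (chr6:138126700-138126999, plus strand): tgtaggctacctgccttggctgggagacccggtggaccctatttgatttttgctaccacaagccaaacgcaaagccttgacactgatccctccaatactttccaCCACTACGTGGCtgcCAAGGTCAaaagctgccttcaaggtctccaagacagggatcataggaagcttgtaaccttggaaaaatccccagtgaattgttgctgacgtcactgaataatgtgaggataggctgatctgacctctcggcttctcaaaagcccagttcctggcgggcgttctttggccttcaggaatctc

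The 404 sites made up 9.68% of the 4175 distal pairs that met the distance limits. In the others, 2857 pairs lay past the number limit in both lists and are called later-listed distal pairs, and 914 lay within it in 1 list only. The 2959 early-listed pairs within 1 kb of an annotated start are called early-listed promoter pairs. Basal widths of the 404 sites ran from 199 to 1049 bp with a median of 399 bp (quartiles 336.5 and 499 bp), and overexpression widths from 199 to 1149 bp with a median of 349 bp (quartiles 299 and 449 bp). Later-listed distal pairs were narrower, with medians of 249 and 199 bp, and width followed the number that chose the sites. In 82 of the 404 sites (20.3%) both limits were identical in the lists, and in 354 (87.6%) the overlap covered the narrower site whole. The median shift between the basal and the overexpression centre was 25 bp (quartiles 0 and 50 bp).

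**Figure D1:**
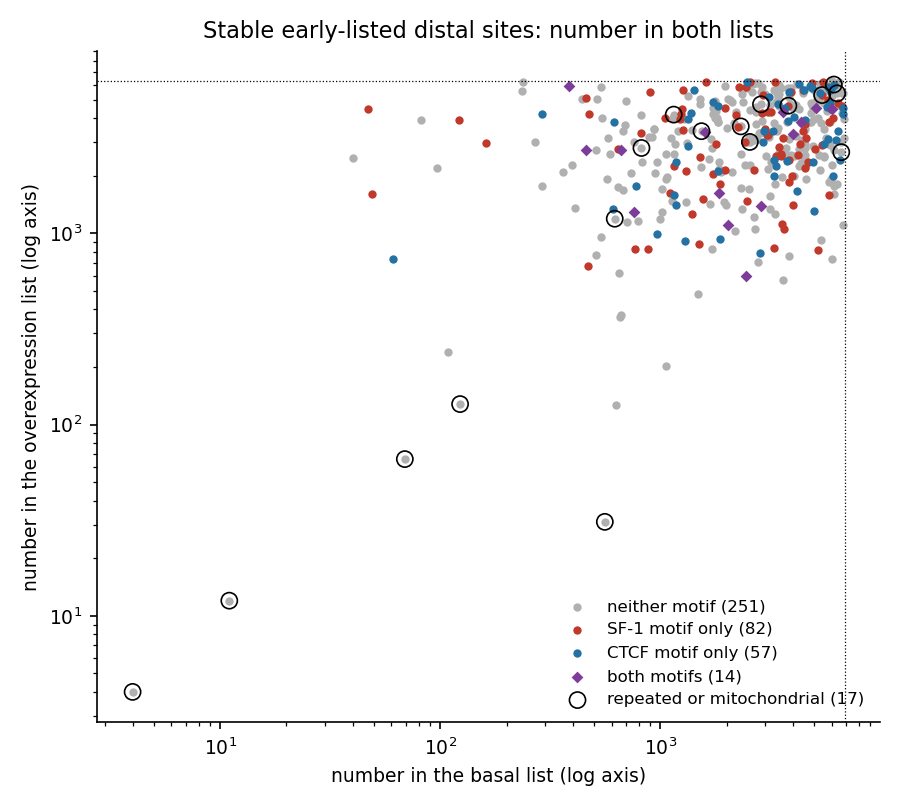
Running number of each of the 404 sites in the basal list (x axis) and the overexpression list (y axis), both on log axes, with dotted lines at the last numbers inside the limit, 6884 and 6243. Colours give the motifs in the basal site, and black circles mark the 17 sites with repeated or mitochondrial sequence, which hold 5 of the 6 lowest sums of both numbers.

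Sequence shared with mitochondrial DNA or present in many copies was frequent among the very first places, while 5 of the first 10 sites were not of this kind. Of the 6 sites with the lowest sum of both numbers, 5 matched mitochondrial DNA or had at least 10 other copies in the genome. The very first, with number 4 in both lists, lay on chromosome 8 in an intron of VPS13B, a gene for a Golgi protein, and 84 bp of it matched mitochondrial DNA at 98.8% identity. The second, near RAMP3, which encodes a receptor accessory protein, had the numbers 11 and 12, and 164 bp of it matched mitochondrial DNA at 95.1% identity. The next places fell to a pair of sites near the olfactory receptor gene OR4C46, with 2892 and 57 other copies, and the sixth site, near LINC00999, had 2074. In all, 17 of the 404 sites (4.21%) were of this kind, against 2.10% of later-listed distal pairs and 0.980% of early-listed promoter pairs. Only 2 of the 17 held an SF-1 motif and 1 held a CTCF motif. Without them 387 sites remained, with SF-1 motifs in 24.3% and CTCF motifs in 18.1%.

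The remaining sites among the first 10 had no other copy. The site in an intron of ZSWIM6 had the numbers 108 and 239 and widths of 499 and 399 bp. Sites near DEGS2, which encodes an enzyme of sphingolipid synthesis, and near MKNK2, a kinase gene, were GC-rich at 70.8% and 70.4%. The TRPM3 site printed first above had the numbers 61 and 738, and was the only site of the first 10 that held an SF-1 or CTCF motif. The tenth, nearest to RAPGEF1 and in an intron of MED27, had the numbers 659 and 374.

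Next the motifs in the basal sites were counted, since the rule had used no sequence. SF-1 motifs were present in 96 of the 404 sites (23.8%, exact interval 19.7 to 28.2%). Flanks of equal length that began 1000 bp beyond either end held one in 3.71% of 808 cases (2.52 to 5.26%), so the share in the sites was 6.40 times that of their flanks. CTCF motifs were present in 71 sites (17.6%, 14.0 to 21.6%) and in 1.98% of the flanks (1.14 to 3.20%), a ratio of 8.88. In later-listed distal pairs the ratios to their own flanks were 5.46 for SF-1 and 21.95 for CTCF motifs. Over all sites of the basal list, 12.7% held an SF-1 motif and 17.5% a CTCF motif. GACACGCA or GACATGCA, a control made by shuffling the SF-1 letters, was found in 2.48% of the sites and 2.60% of the flanks.

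Of the other motifs, AP-1, GATA and NRSF/REST had shares closer to those of their flanks. AP-1 motifs, TGACTCA or TGAGTCA, were found in 46 sites (11.4%, 8.46 to 14.9%) and in 7.80% of the flanks. GATA motifs, AGATAA or TGATAA, were found in 152 sites (37.6%) and 36.9% of the flanks. Cyclic AMP response elements, TGACGTCA, were found in 4 sites, near ZSWIM6, TNFAIP3, SLC2A1 and PTPN1, and in 0 of 808 flanks, where 3 counts of the total allow a share of up to 0.371% and the exact 95% interval one of up to 0.456%. NRSF/REST matches were found in 6 sites (1.49%), near PRKCH, TXNIP, PDZRN3, NR5A1, KCTD20 and TOM1L2, and in 0.866% of the flanks. Of these genes, SLC2A1, PTPN1, PRKCH, TXNIP, PDZRN3, KCTD20 and TOM1L2 were named after their values had been seen.

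**Figure D2:**
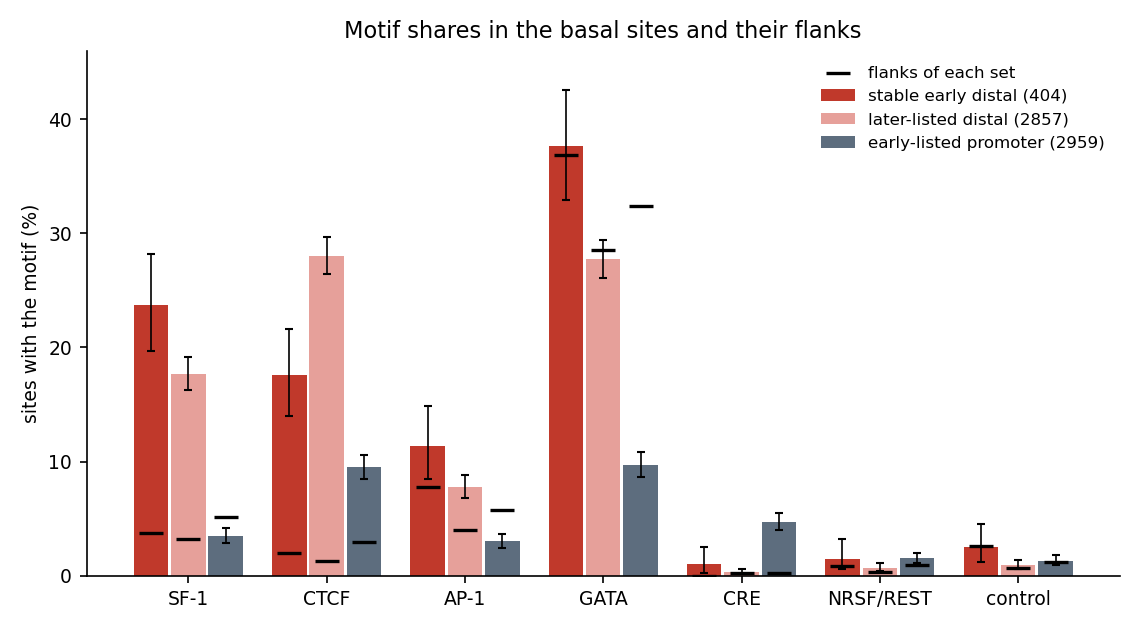
Share of sites with each motif (y axis, %) in the 404 stable early distal sites, 2857 later-listed distal pairs and 2959 early-listed promoter pairs, with exact 95% intervals as error bars and the flanks of each set as black dashes. SF-1 motifs stand at 23.8%, 17.7% and 3.48% in the 3 sets and CTCF motifs at 17.6%, 28.0% and 9.50%.

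Within the sites, the SF-1 motif nearest to the centre lay a median of 43 bp from it. A single motif placed evenly along these sites would lie at a median of 99.8 bp. That value is too high for sites with more than 1 motif. For CTCF motifs the median was 34.5 bp, and for AP-1 and GATA motifs it was 82 and 83 bp. The shuffled control, present in 10 sites, had a median of 83.5 bp. SF-1 motifs within 50 bp of the centre were seen in 52 of the 96 sites (54.2%). CAAGGCCA accounted for 60 of the 119 SF-1 matches (50.4%) and CAAGGTCA for 59. In later-listed distal pairs the counts were 231 (42.1%) and 318. This difference was neither tested nor matched for width. More than 1 SF-1 motif was present in 21 sites, and the most, 3, in those near TMPO and NKD1, genes for a nuclear lamina protein and a Wnt antagonist that were also named after their values had been seen. By motif, 82 sites held SF-1 only, 57 CTCF only, 14 both and 251 neither.

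In the 14 sites with both motifs, the nearest SF-1 and CTCF matches were separated by a median of 72 bp (range 3 to 207 bp). Of the 5 with the smallest number sums, the TNFAIP3 site printed above had its motifs 3 bp apart. Its numbers were 457 and 2741, and it lay 61.5 kb upstream of TNFAIP3, which encodes an inhibitor of NF-kappaB signalling. In the UNC5B site, 24.8 kb upstream of the start of this netrin receptor gene, the motifs were 141 bp apart, the limits were identical in both lists, and the numbers were 756 and 1298. The other sites were in introns of MYO16 and CLNK and, 152 kb upstream of STX18, in STX18-AS1, with gaps of 54, 173 and 65 bp.

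To see whether the motifs marked the early-listed distal sites rather than distal sites in general, shares were compared with later-listed distal pairs. SF-1 motifs were 6.09 percentage points more frequent in the 404 sites (Newcombe interval 1.94 to 10.7), and CTCF motifs 10.5 points less frequent (difference -10.5, interval -14.3 to -6.14). Both differences turned when sites of like width and GC content were compared, to -2.72 points for SF-1 (-8.80 to 3.37) and 2.45 points for CTCF (-2.80 to 7.70), over 398 sites, with 0 inside both intervals. Matching on width alone gave -2.86 (-8.47 to 2.76) and 3.40 (-1.15 to 7.94), whereas matching on GC content alone gave 6.58 (2.19 to 11.0) and -11.3 (-15.4 to -7.20). In a fixed window of 500 bp around the centre the SF-1 difference was 3.12 points (-1.10 to 7.76) and the CTCF difference -12.4 points (-16.2 to -8.05). Without matching, the shuffled control was also more frequent in the 404 sites, by 1.565 points (0.364 to 3.61). AP-1 and GATA motifs were so by 3.62 (0.685 to 7.2) and 9.87 points (4.99 to 14.95). With strata of width and GC content these differences were 1.19 (-2.30 to 4.68), -2.785 (-7.84 to 2.27) and -1.40 points (-7.93 to 5.13).

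The shares were also counted by width class. In sites narrower than 250 bp, CTCF motifs were found in 9 of 28 early sites (32.1%, 15.9 to 52.4%) and 32.6% of 2038 later ones. In those from 350 to below 450 bp, the CTCF shares were 8.11% of 111 and 6.43% of 140. SF-1 motifs were found in 16.5% of 158 early sites from 250 to below 350 bp (11.0 to 23.2%) and in 23.1% of 614 later ones (19.9 to 26.7%). In sites of 450 bp or more they were found in 31.8% of 107 early sites (23.1 to 41.5%) and 32.3% of 65 later ones (21.2 to 45.1%). In every class the intervals of the early and the later set overlapped.

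**Figure D3:**
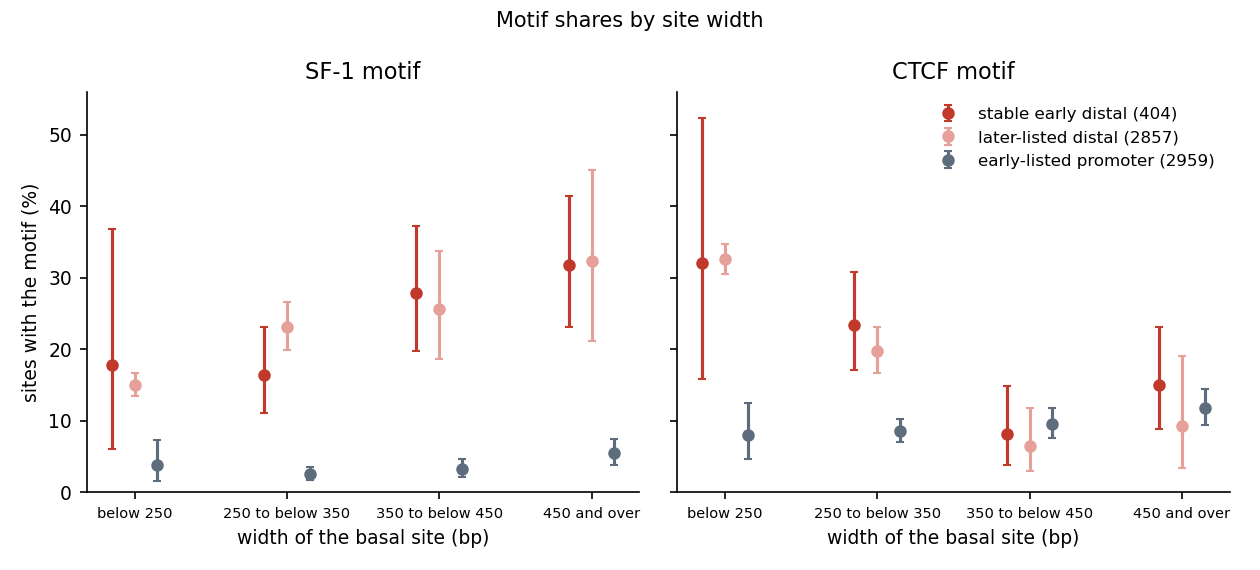
Share of sites with an SF-1 motif (left) or a CTCF motif (right) by width of the basal site in bp, with exact 95% intervals, for the 3 sets. In the early and later distal sets the SF-1 share was higher at 450 bp and over than below 250 bp, and the CTCF share lower, and their intervals overlap in every class.

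Against early-listed promoter pairs the SF-1 difference was larger. SF-1 motifs were found in 3.48% of the promoter pairs, below the 5.17% of their own flanks, and the distal sites exceeded them by 20.3 points (16.3 to 24.7). With strata of width and GC content the difference was 10.2 points (1.20 to 19.3) over 390 sites, and with GC content alone 12.6 points (4.21 to 21.1). Promoter pairs had a median GC content of 64.2% and the distal sites one of 44.8%. CTCF motifs were 8.08 points more frequent in the distal sites (4.50 to 12.2), or 8.50 points with strata (-0.268 to 17.3). Cyclic AMP response elements, in 4.70% of promoter pairs, were less frequent in the distal sites by a difference of -3.71 points (-4.73 to -2.03). With strata of width and GC content this difference was -1.04 points (-8.46 to 6.38), with 0 inside the interval.

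Between the conditions, 113 of the 404 sites were wider in the overexpression list (28.0%), 113 had the same width and 178 were narrower (44.1%). Over all 18465 pairs these shares were 35.9%, 26.8% and 37.2%. Changes of at least 100 bp were seen in 39 sites that were wider (9.65%) and 101 that were narrower (25%), beside 15.4% and 17.3% of all pairs. An earlier relative place in the overexpression list was held by 152 sites (37.6%), beside 46.7% of all pairs. The basal centre, the numbers and the overlap all entered the choice of the sites, so nothing is read from these counts. Of the 96 sites with an SF-1 motif, 23 were wider in the overexpression list, 22 had the same width and 51 were narrower. For the 251 sites with neither motif these counts were 73, 72 and 106. For the 57 with a CTCF motif only they were 17, 19 and 21. Nothing is read from the counts by motif either.

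The sites were mostly intronic or intergenic. An intron of a protein-coding gene held the centre of 192 sites (47.5%, 42.6 to 52.5%), 163 were intergenic (40.4%), 42 lay in a non-coding gene (10.4%), 6 in an untranslated exon and 1 in a coding exon. Later-listed distal pairs were intronic in 50.8% and intergenic in 36.6%. The nearest coding start was a median of 33.3 kb away (quartiles 17.9 and 70.8 kb), or 64.0 kb when only the 5′ end of each gene was used, with 120 sites at 10 to 20 kb, 138 at 20 to 50 kb, 76 at 50 to 100 kb and 70 beyond. In later-listed distal pairs the median was 31.2 kb. By the strand of the nearest gene, 198 sites (49.0%) were upstream of its start.

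The limits of the choice cut through similar sites. Just within the number limit lay the sites nearest to AKR1B15, with numbers 2563 and 6223, and SEMA6D, with numbers 6020 and 6243. Just outside were those nearest to TLE1 and RORB, with numbers 1579 and 6245 and numbers 3445 and 6259. At the limit for the distance to any start, sites near TMCC1 and PDE6A were inside at 10.01 and 10.08 kb, and sites near PGM5 and ABR outside at 9.97 and 9.98 kb. At the limit for coding starts, MAML3 and TMEM26 were inside at 196.4 and 198.2 kb, and TRIM51G and ALDH8A1 outside at 200.4 and 205.5 kb.

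Adrenal genes were then looked up in 6 lists of 149 genes. Of these, 12 (8.05%) were the nearest coding gene of a site, while 359 of 20090 coding genes (1.79%) were so over the genome, and 18 (12.1%) had a start within 200 kb of a site, beside 1302 genes (6.48%). None of the 22 steroidogenic enzymes and their partners was the nearest gene of a site, and only AKR1B1, which encodes an aldo-keto reductase, had a start within 200 kb. Of 10 adrenocortical markers, NR5A1 alone was the nearest gene of a site. None of 3 endothelial and 4 macrophage markers was, although CSF1R, a macrophage marker, had a start within 200 kb. No test was made over these lists, and a site near a gene does not show that it acts on it.

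NR5A1 itself was the single gene of 29 adrenal development factors that was nearest to a site. Its site, printed above, lay 19.0 kb upstream of the NR5A1 start at chr9:127288451-127288949 at basal dosage and at chr9:127288551-127288899 on overexpression, inside an intron of the neighbouring NR6A1, which encodes a related orphan nuclear receptor. Its number was 1517 at basal dosage and 4775 on overexpression, and its width 499 and 349 bp. It held a GATA motif and the NRSF/REST match, and neither an SF-1 motif of this form nor a CTCF motif. Within 100 kb of the NR5A1 start the basal list held 11 sites and the overexpression list 7, all 7 of which overlapped a basal site. A basal site at the start itself, with number 25574 and a width of 149 bp, had no counterpart in the overexpression list. Over chromosomes 1 to 22 and X only 53.7% of basal sites were in a 1-to-1 pair, so basal sites outside such a pair were common. Nothing is read from the counts at NR5A1.

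**Figure D4:**
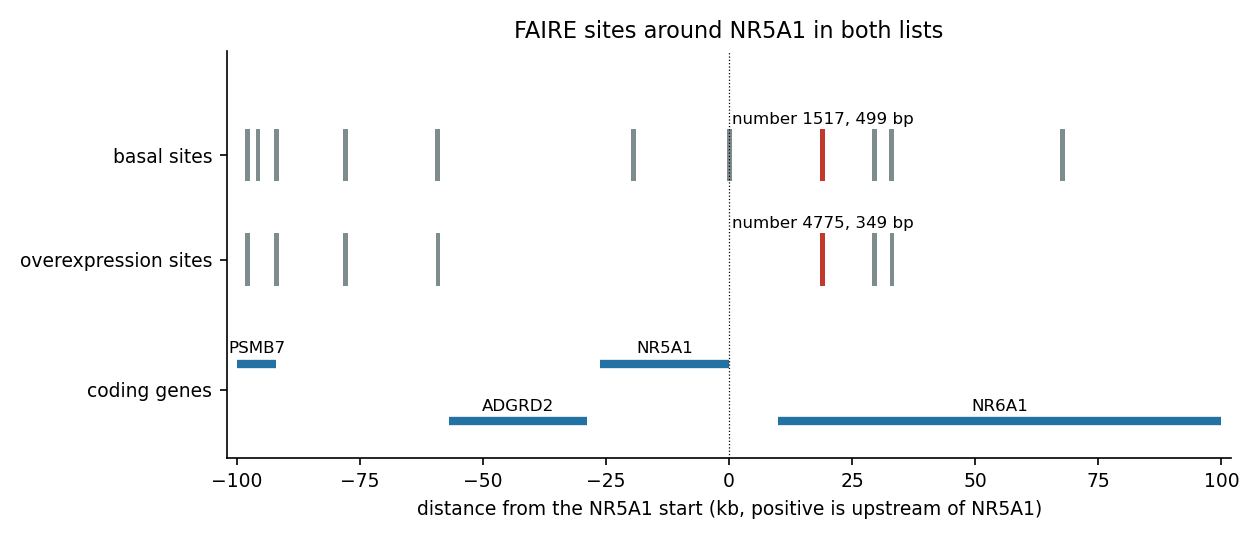
FAIRE sites of both lists by distance from the NR5A1 start (x axis, kb, positive upstream), drawn wider than to scale so that they can be seen, with the coding genes below. The stable early-listed site (red) lies 19.0 kb upstream within NR6A1, with number 1517 and 499 bp in the basal list and number 4775 and 349 bp in the overexpression list.

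Genes of aldosterone control were the nearest of 2 sites among 16 genes. KCNK3, which encodes a potassium channel that sets the membrane potential of zona glomerulosa cells, had an intronic site at chr2:26947051-26947549, 31.7 kb downstream of its start. It had the numbers 4542 and 3742 and widths of 499 and 549 bp, and held the pair of SF-1 motifs printed above besides an AP-1 and a GATA motif. NR4A3, an immediate early nuclear receptor gene, was the nearest coding gene, at 195.4 kb, of a site of 599 and 549 bp with the numbers 360 and 2091, which held 3 GATA motifs and no SF-1 motif.

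For ACTH and cAMP signalling, 3 of 21 genes were nearest to a site. PDE4D and PDE11A, which encode phosphodiesterases, each had an intronic site, with the numbers 3293 and 2423 for PDE4D and 5884 and 3820 for PDE11A. The PDE4D site, chr5:59095951-59096249, was 299 bp wide with the same limits in both lists, and its CTCF match lay 4 bp from the centre. The PDE11A site, chr2:178737501-178737999, held 2 GATA motifs and neither of the main ones. PRKAR2B, a regulatory subunit gene of protein kinase A, lay 29.8 kb from a site that was 249 bp wide in the basal list and 399 bp in the overexpression list.

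For cholesterol uptake, storage and synthesis, ABCA1, which encodes a cholesterol exporter, was nearest to a site, and the starts of LIPE and SREBF1 lay within 200 kb of others. The ABCA1 site lay 40.1 kb upstream of the start and was 299 bp wide with identical limits in the lists. Its numbers were 1841 and 2182, and it held neither an SF-1 nor a CTCF motif.

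Among 34 adrenocortical tumour genes, CCNE1, IGF1R, MYC and TGFBR1 were nearest to a site. The MYC site, 15.5 kb downstream of the start of this growth regulator on chromosome 8, held 2 SF-1 motifs, with numbers 1103 and 1625 and widths of 599 and 349 bp. IGF1R, a growth factor receptor gene, had an intronic site of 299 bp in both lists, whose numbers were 5379 and 925. The CCNE1 site, 44.4 kb from the start of this cyclin gene, was 549 bp wide in the basal list and 349 bp in the overexpression list. The TGFBR1 site had 39 other copies in the genome. Over the 12 adrenal genes, SF-1 motifs were thus held by the sites of KCNK3 and MYC and a CTCF motif by that of PDE4D.

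Most nearest genes had a single site. Of the 359 genes, 323 were nearest to 1 site and 36 to at least 2. THSD4, which encodes a protein of the extracellular matrix, led with 5 intronic sites, 31.6 to 100.5 kb from a start, 1 of them with an SF-1 motif. TNS3 had 4 sites at 13.9 to 132.8 kb, 1 with a CTCF motif. TRPM3 had 3 sites, 2 of them with CTCF motifs, and LYRM9 had 3, 1 with an SF-1 motif. The 3 sites near OR4C46 were all of repeated sequence, with 2892, 57 and 171 other copies. RORB, a nuclear receptor gene, MYH9, a non-muscle myosin gene, PDE9A, a cyclic GMP phosphodiesterase gene, and TBX3, a developmental transcription factor gene, had 2 sites each. SF-1 motifs were present in 1 of the 2 sites of RORB and of TBX3, and in none of MYH9 and PDE9A.

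Neighbours among the 404 sites on a chromosome had a median gap of 1896 kb (quartiles 524 and 7620 kb). No reference for randomly placed sites was computed, so whether the sites lay apart or together was not tested. Another of the sites lay within 50 kb for 51 of them (12.6%, 9.55 to 16.3%), within 20 kb for 25 and within 1 Mb for 227 (56.2%). These 51 formed 23 groups, of which 19 were pairs and 4 had at least 3 sites. THSD4 introns held 4 sites within 69.4 kb, TRPM3 introns 3 within 35.9 kb, the LYRM9 region 3 within 54.1 kb, and the repeated stretch near OR4C46 3 within 22 kb. A pair upstream of ZNF618, 10.2 kb from end to end, held an SF-1 motif in both sites. Of 64 sites with a single CTCF motif, 38 had it on the plus strand and 26 on the minus strand. Such neighbours within 1 Mb numbered 6 pairs, of which 2 were convergent, 2 divergent and 2 on the same strand.

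Counting other basal sites of any number within 50 kb, the 404 sites had a median of 2 (quartiles 1 and 4), and 60 of them (14.9%) had none. Later-listed distal pairs had a median of 2 (quartiles 1 and 3), and 23.1% had none.

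Chromosome 9 held more of the sites than any other chromosome. It carried 59 of the 404 (14.6%), against 5.88% of later-listed distal pairs, a difference of 8.72 points (5.48 to 12.6), and 7.30% of early-listed promoter pairs. Of the 59, 56 (94.9%) were centred beyond 70 Mb, as were 139 of the 168 later-listed distal pairs on this chromosome (82.7%). The 59 were nearest to 52 genes, among them NR5A1, TRPM3, ZNF618, RORB, NR4A3 and ABCA1. SF-1 motifs were found in 12 of the 59 (20.3%) and CTCF motifs in 17 (28.8%), beside 37 and 54 of the 168 later-listed distal pairs there. Of the 23 chromosomes, 3 had an interval of the difference above 0, namely 9, 15 (6.93% against 3.92%) and 19 (2.72% against 1.29%), and 2 had one below 0, namely 2 (3.71% against 7.25%) and X (0.743% against 2.77%). The intervals were not adjusted for the number of chromosomes. Without the sites of repeated sequence in either set, the difference on chromosome 9 was 9.16 points (5.82 to 13.1).

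**Figure D5:**
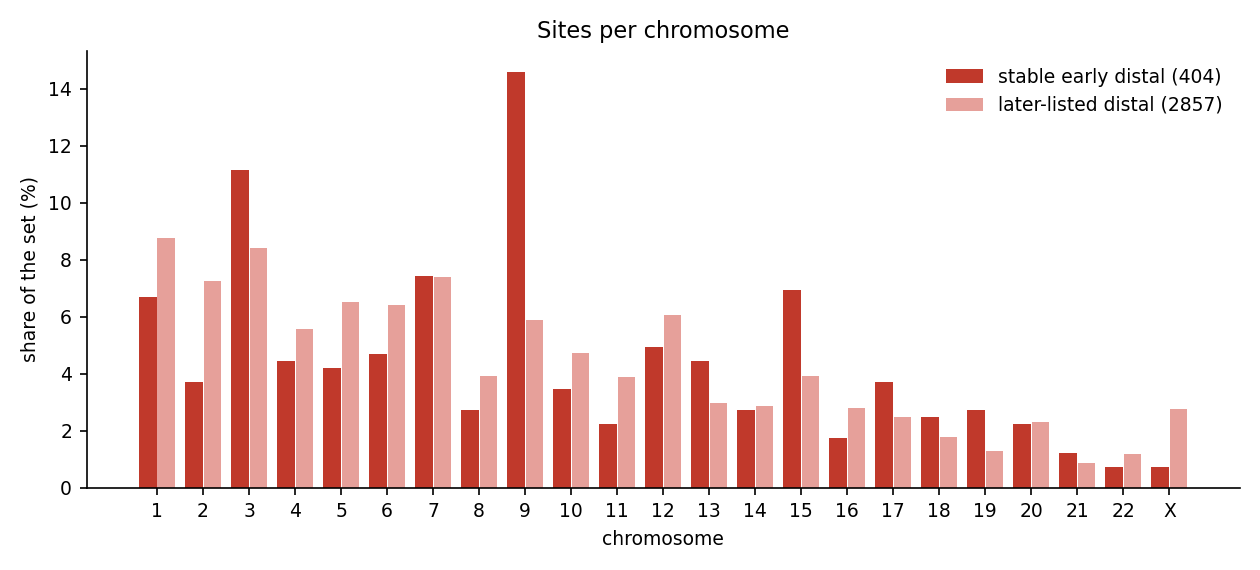
Share of each set (y axis, %) on each chromosome (x axis) for the 404 stable early distal sites and the 2857 later-listed distal pairs. Chromosome 9 stands at 14.6% and 5.88%, and chromosome X at 0.743% and 2.77%.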

How the data were processed

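FAIRE sites of 1 library per condition were analysed, grouped per the labels. The authors deposited each list as a browser track with chromosome, start, end, a running number, a score of 1000 for every site and a strand. The score was therefore not used, and the quantity behind the running number, the peak caller and its threshold are not given in the sources used here. The submitters' processing notes name CASAVA 1.8 and hg19. No read counts were given, so depth is unknown.

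Coordinates are 1-based on GRCh37, with genes from GENCODE 44 mapped to it. Motifs were searched on both strands, with 1 mismatch allowed for CTCF and NRSF/REST, and a palindrome was counted once. Shares have exact (Clopper-Pearson) 95% intervals, differences have Newcombe intervals, and strata were 5 percentage points of GC content by 100 bp of width. Copies were BLAST 2.17.0 matches of at least 75% identity over 80% of a site, and mitochondrial matches had at least 50 bp. Python 3.11.15, pandas 2.3.3, SciPy 1.17.1 and pysam 0.24.0 were used, and the code was tested on simulated data.

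The sites, gene lists and motifs were chosen with earlier results of these data known. Named sites were those nearest to a gene of the adrenal lists, those of the 10 genes with most sites, the 10 with the smallest number sum, the 5 with both motifs and the smallest sum, and the 2 on either side of each limit. Results that need items withheld from this text are not reported here.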

Additional observations from a re-analysis of the deposited data

How the results depend on the processing

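No paired analysis was possible because each condition had 1 library and no result came from a test. Counts of the sites followed their definition: 123 with the first 10% of the lists, 768 with the first 30%, 216 beyond 20 kb and 635 with coding starts only. CTCF motifs were found in 6.19% with no mismatch and SF-1 motifs in 39.9% with 7 letters. The CTCF difference from later-listed distal pairs reversed to 2.45 points with strata of GC content and width and to 3.40 with width alone, and the SF-1 difference to -2.72 and -2.86. The SF-1 difference reached 0 within its interval in the 500 bp window (3.12) and with the first 10% (4.70), as did the CTCF difference from promoters with strata (8.50). The share with a neighbour was 6.19% at 20 kb and 16.3% at 100 kb, the genic share 59.7% with all annotated genes, the median distance 64.0 kb to the 5′ end of the gene alone, and the share wider on overexpression 21.1% with the first 10% and 9.65% at a limit of 100 bp. The cause of these moves was not tested beyond the changed definitions. The other 39 of 58 alternative values kept their direction and side of 0, or stayed within the interval of the main value or 1.5 times its count. Leaving out repeated sequence, chromosome 9, strata of width alone or GC content alone, and other limits for chromosome 9 were chosen after seeing the data. A planned exclusion of soft-masked repeats was not run, because the genome used carried no soft-masking.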
